A study of Homo sapiens with 34 samples.

Results

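The interferon response and antigen presentation genes are 48 genes taken by name: 3 cytoplasmic sensors of viral nucleic acid, 4 transcription factors, 9 effectors that act on RNA, 15 other antiviral effectors, 4 genes of the ISG15 pathway, 5 genes of nuclear bodies and the PARP9 complex, and 8 genes of class I antigen presentation. Membership used no measured value, though the list was chosen with earlier results of these data known. Of the 48 genes, 45 had an intron in the deposited splicing table and hence a count of reads across spliced junctions, among 29324 such genes in all. Of these, 39 passed a filter on low counts, which asked 2 or more libraries for at least the equivalent of 10 reads in a library of median size and left 12081 genes of the whole series for testing. Of the 39, 32 reached that count in all 34 libraries, while OAS1, IFIT1, USP18, IFI27, ISG20, BST2 and MX1 did so in 3 to 24 of them. Of those 7 genes, OAS1 and BST2 were called in a comparison with controls.

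The libraries are total RNA of hTERT RPE-1, a telomerase-immortalised line of human retinal pigment epithelium, sequenced after removal of ribosomal RNA as stranded libraries. Every culture received a lentivirus coding for a hybrid guide RNA (hgRNA), which carries 1 Cas9 and 1 Cas12a guide and so can cut out the stretch between them, at less than 1 virus per cell. All were kept under puromycin (20 µg/ml) for 72 h to remove cells without the virus and grown for 4 more days. Each of 17 hgRNAs was used in 2 cultures, labelled as biological duplicates, and all comparisons with controls share the same 4 control libraries. Controls carried 1 of 2 hgRNAs that cut between genes. DDX5 (hgRNAs 1 and 2), DDX17 (1 and 2), HDAC7 (1 and 2), FNBP4 (1 to 4) and HNRNPD (1 hgRNA, spelled HNPNPD in its titles) carried an intronic deletion. For DDX17, HDAC7 and FNBP4 hgRNAs 3 and 4 the labels say that the deleted stretch holds an exon with a premature termination codon (PTC), whose inclusion marks an mRNA for decay. FNBP4 hgRNAs 1 and 2 are therefore called the FNBP4 intron deletion and hgRNAs 3 and 4 the FNBP4 PTC exon deletion. DDX5, DDX17, FNBP4 and HDAC7 were also each knocked out with 1 hgRNA, an exonic Cas9 guide with a Cas12a guide that cuts between genes.

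Some facts limit these groups as models. There is 1 cell line, and the 2 HDAC7 deletion hgRNAs share a Cas9 guide, as do FNBP4 hgRNAs 2 and 3. The HDAC7 knockout labels give, for both its Cas9 and its Cas12a part, the Cas9 guide of the FNBP4 knockout, gaagtctgggatgagaacac. mRNA of the targeted gene was lower in the DDX5 knockout (log2 difference -1.88, limma adjusted p = 8.31e-07) and in the DDX17 knockout (-0.44, adjusted p = 0.0133). It was not called lower in the libraries labelled FNBP4 knockout (FNBP4 -0.31, adjusted p = 0.535) or HDAC7 knockout (HDAC7 -0.16, adjusted p = 0.664), so these are named by their labels. DDX5 mRNA was lower in the DDX5 deletion (-0.44, adjusted p = 0.0441) and that of FNBP4 was higher after deletion of its PTC exon (1.63, adjusted p = 1.26e-05). The targeted gene was not called in the other 4 deletions, with differences of 0.04 for DDX17 (adjusted p = 0.866), -0.27 for HDAC7 (adjusted p = 0.418), 0.34 for FNBP4 after its intron deletion (adjusted p = 0.481) and 0.29 for HNRNPD (adjusted p = 0.188, limma).

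Interferons are secreted proteins that cells release when they sense viral RNA or DNA. Their receptors act through JAK kinases to bring STAT2 and IRF9 together in a complex that binds the interferon-stimulated response element (ISRE) of target promoters, while interferon gamma acts on the gamma-activated site (GAS) and, through IRF1, on genes of antigen presentation. Many target genes also have a low level without added interferon, and epithelial cells show peptides on class I molecules at all times, so these transcripts can be measured in an untreated line.

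Promoter sequences of these genes were searched for the letters of the ISRE and the GAS. RefSeq promoters (GRCh38.p14), 250 bases before to 50 after the transcription start, were at hand for 39 of the 48 genes, 1 of them by a synonym. The letters GAAANNGAAA, a short form of the ISRE, stood on either strand in 22 of the 39 (56.4%), and in 1255 of 35116 promoters of all genes (3.57%). The letters TTCNNNGAA, a short form of the GAS, stood in 8 of the 39 (20.5%) and in 2689 of all promoters (7.66%). A match is a description of the letters and no evidence of binding. The 250 bases before the start are printed for IFI44L and B2M, the genes with a low and the highest level among those described most below, with ISRE letters in capitals, overlapping in B2M.
IFI44L, chr1:78620198-78620447, + strand: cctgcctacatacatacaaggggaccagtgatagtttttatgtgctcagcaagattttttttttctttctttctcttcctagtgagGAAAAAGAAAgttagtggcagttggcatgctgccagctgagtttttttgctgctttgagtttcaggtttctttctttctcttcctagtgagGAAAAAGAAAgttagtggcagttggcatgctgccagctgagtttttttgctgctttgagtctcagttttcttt
B2M, chr15:44711267-44711516, + strand: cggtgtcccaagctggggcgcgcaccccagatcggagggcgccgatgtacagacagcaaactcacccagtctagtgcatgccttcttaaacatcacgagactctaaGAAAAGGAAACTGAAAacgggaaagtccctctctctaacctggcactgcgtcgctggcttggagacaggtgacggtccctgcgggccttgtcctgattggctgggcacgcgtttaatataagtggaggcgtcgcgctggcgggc
In IFI44L the 2 matches lie at -164 and -73 from the start, and the 30 bases around each are the same letters. Shorter windows are printed for other genes whose levels differed between groups, each with 10 bases on either side of the match in capitals, read on the strand of the gene and named by the first base of the match from the start.
IFI44 -18, chr1:78649761-78649790, + strand: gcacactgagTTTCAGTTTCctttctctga
IFIH1 -21, chr2:162318686-162318715, - strand: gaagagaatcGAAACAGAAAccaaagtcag
OAS3 -143, chr12:112938321-112938350, + strand: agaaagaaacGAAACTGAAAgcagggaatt
PARP14 -29, chr3:122680800-122680829, + strand: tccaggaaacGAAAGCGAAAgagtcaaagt
HLA-F -156, chr6:29723268-29723297, + strand: ctccccagagTTTCTCTTTCtctcccaacc
IRF1 -124, chr5:132490879-132490907, - strand: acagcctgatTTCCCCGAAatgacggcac
IRF9 -63, chr14:24161192-24161220, + strand: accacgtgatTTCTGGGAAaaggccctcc
The first 5 windows show ISRE letters, which in IFI44 and HLA-F are read on the opposite strand as TTTCNNTTTC. The windows of IRF1 and IRF9 show GAS letters, and these 2 transcription factors had no ISRE match. In the map of matches, 22 genes are drawn. Of the 23 called genes with a promoter at hand 12 held an ISRE match, of the 11 tested but not called against controls 8 did, and of the 5 not tested 2 did.

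**Figure D1:**
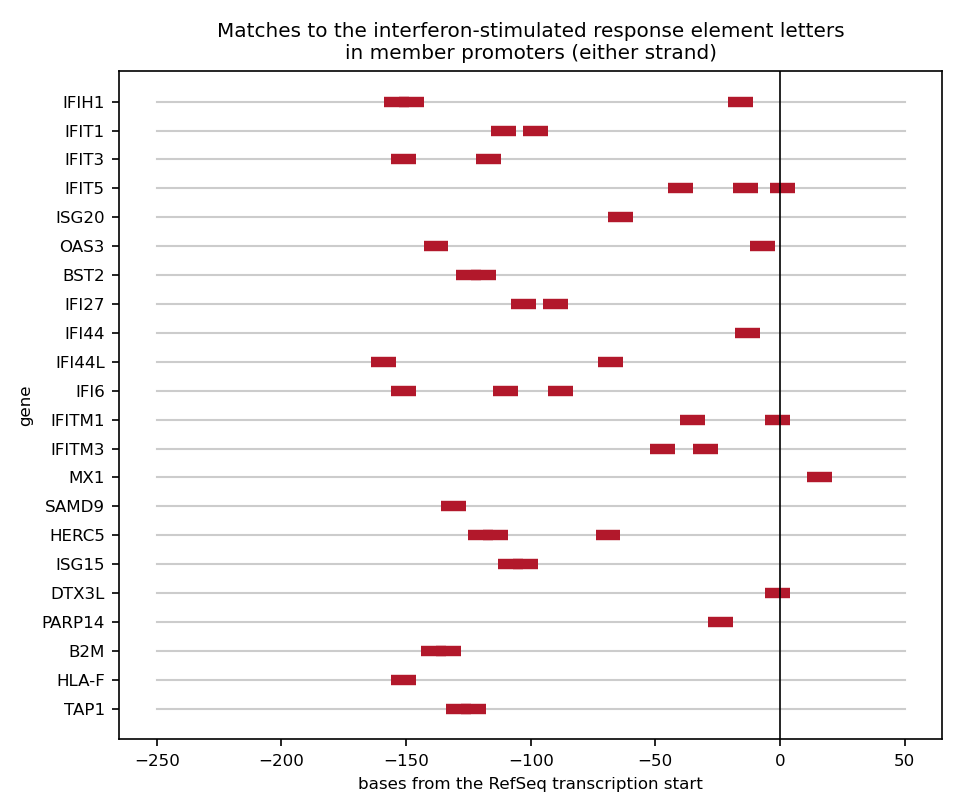
Each grey line is the promoter of 1 of the 22 member genes with a match to GAAANNGAAA on either strand, from 250 bases before to 50 after the RefSeq transcription start (black line), and each red bar is 1 match. The match farthest from the start is that of IFI44L at -164, and the match of MX1 alone begins after the start, by 11 bases.

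Libraries held 12353936 to 20233610 spliced reads, so that 1 read was worth 0.0484 to 0.0887 CPM, the unit in which the spliced reads of a gene are given relative to the depth of their library. A share of 0.965 to 1.21% of junction reads crossed from exon into intron in replicate 1 of the 4 knockouts, against 1.86 to 3.04% in the other 30 libraries. These 4 libraries differed together from their replicate 2 (correlations of 0.369 to 0.497 between knockouts), as did replicate 2 of control hgRNA 1, DDX17 deletion hgRNA 1 and HDAC7 deletion hgRNA 1 (0.518 to 0.663). Of the markers of retinal pigment epithelium, KRT8 (460 to 982 CPM), KRT18 (279 to 696), MITF (9.14 to 24.1) and OTX2 (1.86 to 8.07) were present. PMEL reached at most 1.22 CPM and SERPINF1 at most 2.47 (median 0.262). TYR was at 0 in all libraries and RLBP1, RPE65, BEST1 and TTR reached at most 0.368 CPM. Markers of leukocytes and endothelium reached at most 1.1 CPM (PTPRC), and CD3E, CD14, VWF and CDH5 at most 0.0688 CPM. In bulk RNA, fewer cells that express a gene and less of its RNA per cell cannot be told apart.

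Class I antigen presentation supplied the most abundant transcripts among the 48. In the authors' deposited table, where values are scaled for transcript length (RPKM) and so can be compared between genes, control levels were 721.07 RPKM for B2M, the light chain of class I molecules, 430.64 for HLA-C, 218.66 for HLA-B and 97.84 for HLA-E. IFITM3, a membrane protein that blocks virus entry, came next at 80.02 RPKM. Altogether 17 of the 48 genes had 10 RPKM or more in controls, 21 had 1 to 10 and 10 had less than 1. The last set held strongly inducible effectors, with OAS1 at 0.4 RPKM, MX1 at 0.25, OAS2 at 0.13, OASL at 0.12, MX2 at 0.02, RSAD2 at 0.01 and both CMPK2 and XAF1 listed at 0. The deposited table gives 1 control value and no spread.

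Each edit was then compared with the 4 control libraries, gene by gene, in 1 limma fit over all 34 libraries, and a gene was called higher or lower at an adjusted p under 0.05 over all 12081 genes. Across the 10 comparisons members were called lower 69 times and higher 10 times. Of the 39 genes, 24 were called at least once, 15 of them only lower, 3 only higher and 6 in both directions. Of the 32 genes that reached the count in all libraries, 22 were called. The share of all genes called at least once was not counted, so the 24 and the 22 have no such share beside them. The 2 control hgRNAs, set against each other, gave 0 calls among members and among all genes (0%), and at an unadjusted p under 0.05 limma had 0 members higher and 1 lower. Whether a gene differed between any of the 17 hgRNAs was asked by a moderated F-test, which called 23 of the 39 members, against 38.8% of all genes tested.

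The DDX5 deletion gave the most calls among deletions. Members were called lower 14 times (35.9% of the 39) and higher 2 times (5.13%), against 9.68% of all genes lower and 7.22% higher. The median log2 difference of the 39 members was -0.40 against -0.00 for all genes. The lower genes were all 4 transcription factors (IRF1, IRF7, IRF9, STAT2), the RNA effectors OAS1, OAS3 and IFIT3, the effectors IFI44L, IFI44, IFI35 and BST2, the ISG15 pathway enzymes HERC5 and UBE2L6, and the immunoproteasome subunit PSMB9. The higher genes were DDX58 and SP110. The count of lower genes fell to 5 without control hgRNA 1 replicate 2, to 6 without control hgRNA 2 replicate 1, without either replicate of DDX5 hgRNA 1 or without replicate 2 of hgRNA 2, and to 8 without replicate 1 of hgRNA 2. Calls of IFI44L, IRF1, UBE2L6, DDX58 and SP110 remained under every removal and every other setting run.

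In the FNBP4 PTC exon deletion members went in both directions. They were called higher 7 times (17.9% of the 39) and lower 2 times (5.13%), against 13.9% and 13% of all genes. The higher share was thus near that of all genes, and the members' median was -0.06 against 0.01 for all genes. The sign of that median was not stable: it was 0.13 with the GC and length trend removed, 0.10 without FNBP4 hgRNA 3 replicate 1, 0.02 without control hgRNA 1 replicate 2, 0.03 without the 3 replicate 2 libraries that stood apart, -0.13 without control hgRNA 1 replicate 1, and -0.15 and -0.09 on leaving out replicate 2 of hgRNA 3 or of hgRNA 4. Higher were IFI44L, IFI44, IFIH1, IRF9, PARP9, PARP14 and SAMD9, and lower were OAS3 and ISG15. The higher count was 4 without control hgRNA 1 replicate 2, control hgRNA 2 replicate 1 or FNBP4 hgRNA 4 replicate 1. The lower count was 5 without hgRNA 3 replicate 2, and 1 without control hgRNA 1 replicate 2, control hgRNA 2 replicate 1, hgRNA 3 replicate 1 or either replicate of hgRNA 4.

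The FNBP4 intron deletion gave lower members alone, 7 (17.9% of the 39) against 2.25% of all genes lower, and 0 higher against 1.27% (also 0 at an unadjusted p under 0.05, limma). These were IFI44L, IRF1, IRF9, UBE2L6, HLA-B, HLA-F and B2M, and the median of the 39 members was -0.34 (-0.22 with the GC and length trend removed). Leaving out any of its 8 libraries brought the count to between 1 and 4, with HLA-F called each time.

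The DDX17, HDAC7 and HNRNPD deletions called few members. In the DDX17 deletion IRF1, HLA-F and B2M were lower, 3 (7.69% of the tested members) against 2.72% of all genes. None was higher against 2.27% (3 at an unadjusted p under 0.05, limma). The members' median was -0.11, and it was -0.24 without control hgRNA 1 replicate 1, -0.21 without DDX17 hgRNA 1 replicate 2, -0.20 without the 3 replicate 2 libraries and -0.07 without replicate 1 of either DDX17 hgRNA. The count of lower members was 0 without control hgRNA 1 replicate 2, control hgRNA 2 replicate 1 or either replicate of DDX17 hgRNA 2, and 1 without hgRNA 1 replicate 1, and removing either replicate of hgRNA 1 brought 1 higher call. Without the 3 replicate 2 libraries that stood apart, none of the calls of IRF1, HLA-F and B2M remained. In the HDAC7 deletion STAT2 was lower, 1 (2.56%) against 0.861% of all genes, with 0 higher against 1.04% (2 at an unadjusted p under 0.05, limma) and a median of -0.12. That median was -0.22 without control hgRNA 1 replicate 1, -0.21 without HDAC7 hgRNA 1 replicate 2 and -0.08 without control hgRNA 1 replicate 2. The STAT2 call ended on removal of any of the 8 libraries except HDAC7 hgRNA 1 replicate 1, whose removal gave 2 lower and 2 higher members. In the HNRNPD deletion HERC5 and DDX58 were lower and IRF9 higher. These were 2 (5.13%) against 4.32% and 1 (2.56%) against 4.55% of all genes, near those shares. The median was -0.12, or -0.07 without control hgRNA 1 replicate 2, alone or with the other 2 replicate 2 libraries. Without replicate 1 of the HNRNPD libraries 0 members were called in either direction, without replicate 2 the higher call ended, and without control hgRNA 1 replicate 1 the lower count was 4.

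All calls in the knockouts were lower. The DDX5 knockout called 14 members lower (35.9% of the 39) against 4.11% of all genes, and the DDX17 knockout 5 (12.8%) against 1.00%. The libraries labelled FNBP4 knockout called 13 (33.3%) against 3.67% and those labelled HDAC7 knockout 8 (20.5%) against 3.07%. None was higher, against 5.89, 0.762, 4.54 and 3.43% of all genes in that order, and at an unadjusted p under 0.05 limma had 0, 0, 1 and 0 higher. The medians of the 39 members were -0.66, -0.38, -0.71 and -0.56, and the medians of all genes lay between -0.03 and -0.01. OAS1 had 0 reads in both libraries labelled FNBP4 knockout. With OAS1 placed at the floor of 3 counts over those 2 libraries the median there was still -0.71.

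Many of these calls ended without replicate 1 of the knockouts, the libraries with the low share of exon-intron reads, which leaves 1 library per knockout that is taken to vary like the other groups. In the DDX5 knockout the lower count was 2 without its replicate 1 and 9 without control hgRNA 2 replicate 2. In the DDX17 knockout it was 1 to 3 on removal of any 1 of the 4 control and 2 knockout libraries, and 1 without its replicate 1. In the libraries labelled FNBP4 knockout it was 2 without replicate 1 and 6 without replicate 2, and in those labelled HDAC7 knockout it was 1 without replicate 1, 4 without replicate 2 and 5 without control hgRNA 2 replicate 1. With the 4 replicate 1 libraries left out together, a setting chosen after the data were seen, the counts were 2, 1, 4 and 1, while the members' medians were -0.53, -0.43, -0.66 and -0.57. Removal of the knockout's own replicate 1 ended 12 of 14 calls in the DDX5 knockout (all but IRF1 and B2M), 4 of 5 in the DDX17 knockout (all but HLA-F), 11 of 13 in the libraries labelled FNBP4 knockout (all but IRF1 and HLA-F) and 7 of 8 in those labelled HDAC7 knockout (all but IRF1). The calls that held under every removal and every other setting were IRF1 and B2M in the DDX5 knockout, HLA-F in the DDX17 knockout, and IRF1 and HLA-F in the libraries labelled FNBP4 knockout. Control hgRNA 1 replicate 2, which enters every comparison with controls, mattered to the deletions too. Its removal ended 9 of 16 calls in the DDX5 deletion (IFI44, IRF7, HERC5, OAS1, OAS3, IFIT3, STAT2, IFI35 and BST2), 5 of 7 in the FNBP4 intron deletion (IRF1, IRF9, UBE2L6, HLA-B and B2M), 4 of 9 in the FNBP4 PTC exon deletion (IRF9, PARP9, SAMD9 and ISG15), all 3 in the DDX17 deletion, the 1 in the HDAC7 deletion and 0 of 3 in the HNRNPD deletion. It ended 4 of 14 in the DDX5 knockout (IFI44, OAS1, UBE2L6 and PSMB9), 3 of 5 in the DDX17 knockout (IFI44, IRF1 and HLA-B), 3 of 13 in the libraries labelled FNBP4 knockout (IRF7, OAS3 and PSMB9) and 1 of 8 in those labelled HDAC7 knockout (HLA-F). With the 3 replicate 2 libraries that stood apart left out together, fewer calls ended in several edits. These were 4 of 16 in the DDX5, 3 of 7 in the FNBP4 intron and 1 of 9 in the FNBP4 PTC exon deletion. In the DDX5, DDX17, FNBP4 and HDAC7 knockouts, as labelled, they were 2 of 14, 1 of 5, 0 of 13 and 0 of 8. Removal of control hgRNA 2 replicate 1 left 1 lower member in the FNBP4 intron deletion.

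**Figure D2:**
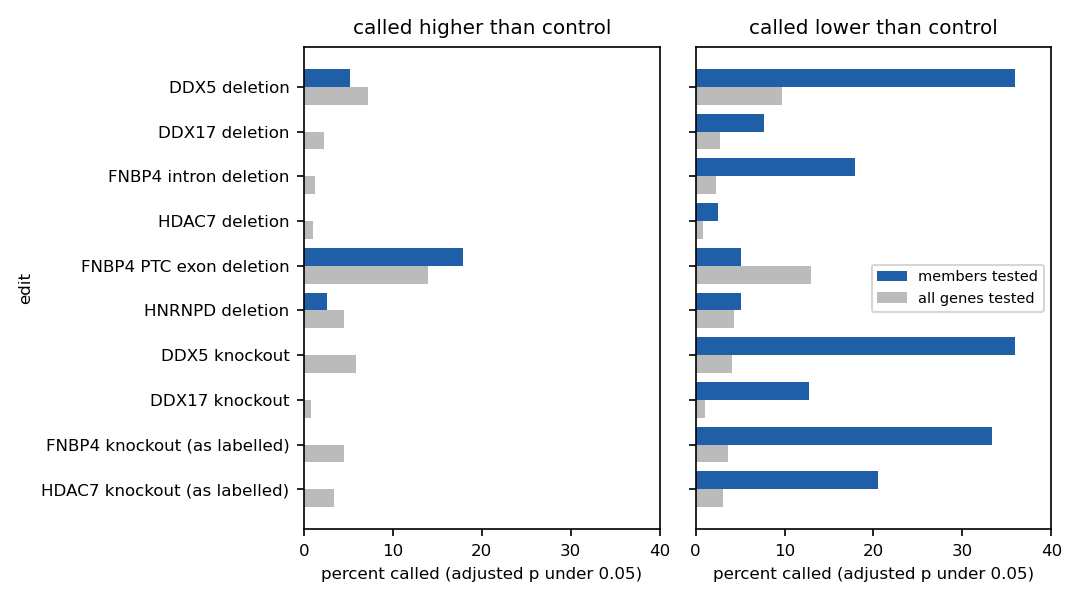
Percent of the 39 tested members (blue) and of all 12081 tested genes (grey) called higher (left) or lower (right) than control in each of the 10 comparisons, at a limma adjusted p under 0.05. The blue bars for lower genes are longest in the DDX5 deletion and the DDX5 knockout, 35.9% of members in each, and in the FNBP4 PTC exon deletion the lower bar of members (5.13%) is shorter than that of all genes (13%).

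**Figure D3:**
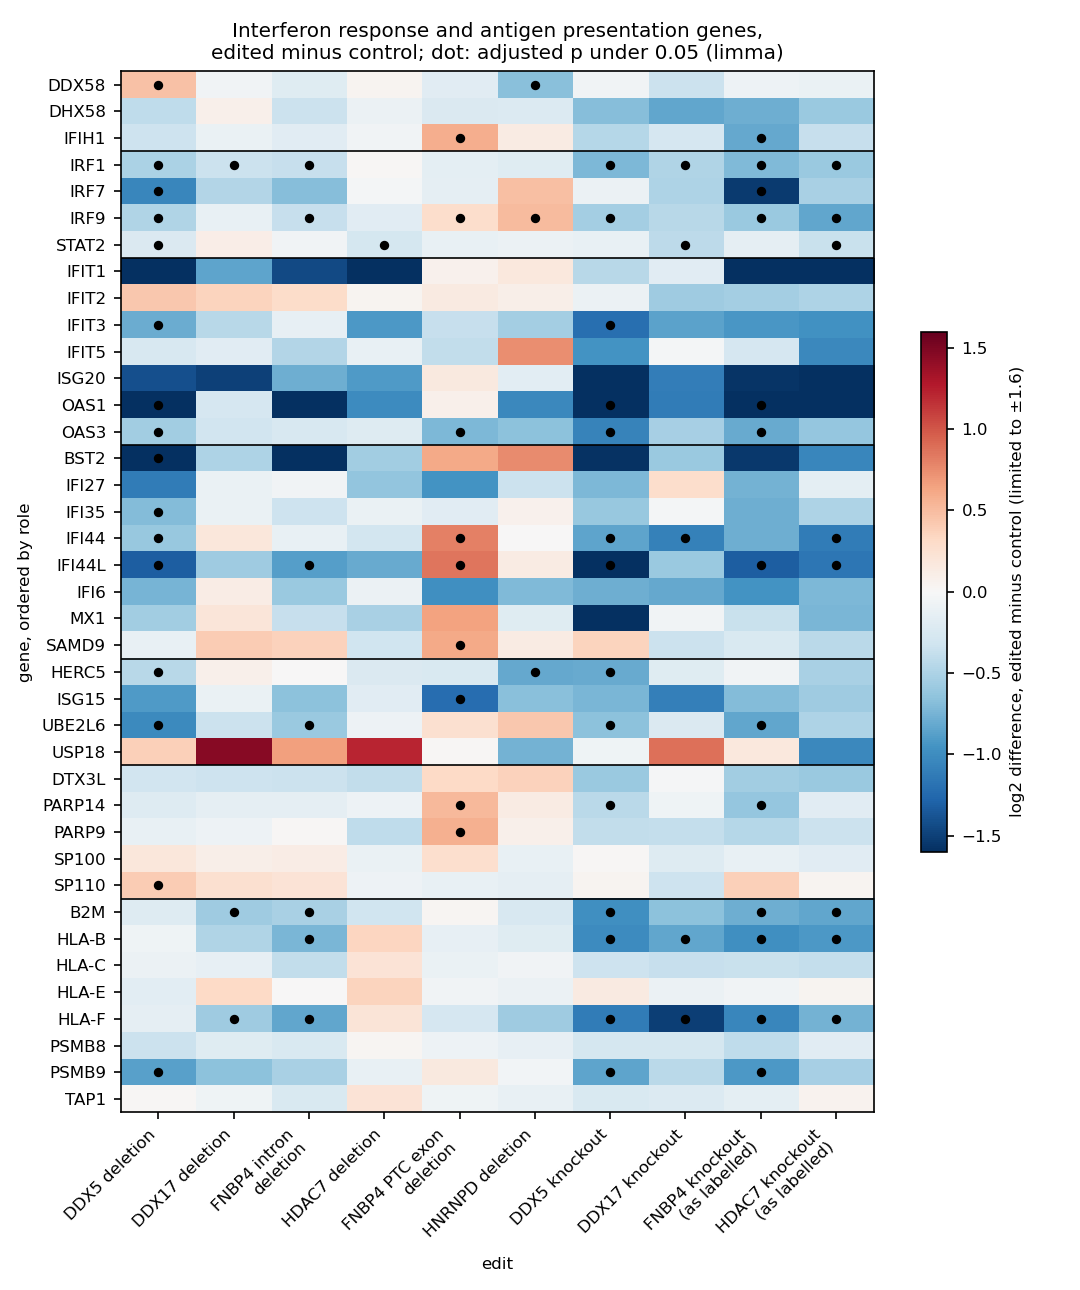
log2 difference from control (colour, limited to 1.6 in either direction) of the 39 tested genes, in rows ordered by role, for the 10 edits in columns. Dots mark limma adjusted p under 0.05. Blue, for lower, runs through most rows of the 4 knockout columns. Dots on red cells, for higher, stand mainly in the FNBP4 PTC exon column, and the strong colours of IFIT1, USP18 and ISG20 carry no dot.

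Among the sensors, calls pointed both ways. IFIH1 (MDA5) and DDX58 (RIG-I, listed as RIGI in the deposited table) are helicases that bind viral double-stranded RNA, and DHX58 (LGP2) modulates them. IFIH1 had 20.8 ± 2.16 (SD, n = 4) CPM in controls. It rose to 31.6 ± 6.47 (SD, n = 4) in the FNBP4 PTC exon deletion (log2 difference 0.58, SE 0.123, adjusted p = 0.00154, limma), where all 4 libraries (40.9, 30.6, 25.99 and 28.9 CPM) lay above the controls (20.7, 18.5, 20.3 and 23.7). It fell to 11.7 ± 0.0498 (SD, n = 2) in the libraries labelled FNBP4 knockout (log2 difference -0.82, SE 0.174, adjusted p = 0.00423), a call lost without replicate 1. DDX58 had 55.2 ± 7.396 (SD, n = 4) CPM in controls and moved in opposite directions in 2 other edits. It rose to 76.1 ± 0.707 (SD, n = 4) in the DDX5 deletion (log2 difference 0.47, SE 0.0953, adjusted p = 0.0014), with all 4 libraries above the controls. It fell to 34.6 ± 4.12 (SD, n = 2) in the HNRNPD deletion (log2 difference -0.67, SE 0.124, adjusted p = 0.00122), a call lost without replicate 1. DHX58 was not called in any comparison, with differences from -0.83 to 0.08.

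The transcription factors IRF1 and IRF9 were called more often than any other member, in 7 of 10 comparisons each. IRF1, an activator that interferon gamma induces and that acts on genes of antigen presentation, had 31.9, 36.1, 28.3 and 29.3 CPM in the control libraries. It had 21.4, 18.2, 24.99 and 23.9 CPM in the DDX5 deletion, 23.4, 27.7, 26.1 and 22.4 in the DDX17 deletion and 20.1, 22.6, 28.4 and 26.8 in the FNBP4 intron deletion. Replicates 1 and 2 had 20.1 and 17.9 CPM in the DDX5 knockout, 22.7 and 22.04 in the DDX17 knockout, 18.8 and 19.4 in the libraries labelled FNBP4 knockout and 22.9 and 18.7 in those labelled HDAC7 knockout. All libraries of these groups lay below the lowest control except replicate 1 of FNBP4 hgRNA 2. IRF1 fell in the DDX5 knockout (log2 difference -0.71, SE 0.125, adjusted p = 0.000846), in the libraries labelled FNBP4 knockout (log2 difference -0.71, SE 0.126, adjusted p = 0.00107) and HDAC7 knockout (log2 difference -0.59, SE 0.126, adjusted p = 0.00669) and in the DDX5 deletion (log2 difference -0.51, SE 0.0991, adjusted p = 0.00107). The differences were -0.34 in the DDX17 deletion (adjusted p = 0.0467), -0.37 in the FNBP4 intron deletion (adjusted p = 0.037) and -0.48 in the DDX17 knockout (adjusted p = 0.044, all limma), and each of these 3 calls was lost on removal of at least 6 of the libraries in turn, among them control hgRNA 1 replicate 2. The call in the libraries labelled HDAC7 knockout was lost without their replicate 2. IRF1 was not called in the FNBP4 PTC exon deletion (23.8, 29.7, 29.5 and 29.6 CPM, log2 difference -0.15), the HDAC7 deletion (28.8, 34.5, 32.6 and 31.3 CPM, 0.02) or the HNRNPD deletion (25.96 and 28.9 CPM, -0.19). It was called higher in none.

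IRF9, the subunit that gives that complex its binding to the ISRE, moved both ways. Its control libraries had 23.6, 21.5, 24.3 and 28.7 CPM. It was highest in the HNRNPD deletion (34.3 and 35.05 CPM) and the FNBP4 PTC exon deletion (30.02, 29.9, 30.96 and 28.1), and lowest in the libraries labelled HDAC7 knockout (12.5 and 15.1). The DDX5 deletion had 18.7, 16.6, 16.2 and 18.3 CPM, the FNBP4 intron deletion 17.4, 18.5, 17.99 and 21.9, the DDX5 knockout 15.7 and 17.8, the DDX17 knockout 16.9 and 19.1 and the libraries labelled FNBP4 knockout 16.2 and 15.98. Both HNRNPD libraries were above all controls and all 4 DDX5 deletion libraries below them, while single libraries of the 2 FNBP4 deletions overlapped the control range. IRF9 rose in the HNRNPD deletion (log2 difference 0.51, SE 0.1205, adjusted p = 0.00935) and the FNBP4 PTC exon deletion (log2 difference 0.28, SE 0.0997, adjusted p = 0.0386). It fell in the DDX5 deletion (log2 difference -0.48, SE 0.105, adjusted p = 0.0028), the FNBP4 intron deletion (log2 difference -0.37, SE 0.103, adjusted p = 0.044), the DDX5 knockout (log2 difference -0.55, SE 0.132, adjusted p = 0.0098) and the libraries labelled FNBP4 knockout (log2 difference -0.60, SE 0.134, adjusted p = 0.00619) and HDAC7 knockout (log2 difference -0.83, SE 0.138, adjusted p = 0.000993). These limma calls were lost without replicate 1 in each of the 3 knockouts, without either HNRNPD library, without any 1 of the 8 libraries of the FNBP4 intron deletion comparison, without any of 5 in the FNBP4 PTC exon comparison (control hgRNA 1 replicate 2 among them), and with the GC and length trend removed in the HNRNPD, DDX5 and FNBP4 intron deletions and the DDX5 knockout. IRF9 was not called in the DDX17 deletion (22.8, 21.2, 21.4 and 24.6 CPM, -0.11), the HDAC7 deletion (21.3, 22.6, 18.4 and 24.8 CPM, -0.18) or the DDX17 knockout (-0.44, adjusted p = 0.0896). In the authors' deposited table IRF9 is higher in 0 and lower in 3 of 15 hgRNA comparisons at an FDR under 0.05. The CPM levels of IRF9 count spliced reads alone. In the DDX5 deletion an IRF9 intron was retained at 33.7% against 18.7% in controls (limma adjusted p = 0.231). Another was at 28.8% in the FNBP4 intron and 23.3% in the DDX17 deletion, against 11.7% (limma adjusted p = 0.465 and 0.668). Whether retention bears on the spliced counts was not tested.

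STAT2, which carries the activation domain of the same complex, varied in a narrow range. The 4 controls had 162, 166, 165 and 166 CPM. The DDX5 deletion had 136, 136, 145 and 144 CPM, the HDAC7 deletion 145, 142, 124 and 134, the DDX17 knockout 117.7 and 129 and the libraries labelled HDAC7 knockout 129 and 128. All 12 of these libraries were below the lowest control. STAT2 fell in the DDX5 deletion (log2 difference -0.23, SE 0.0666, adjusted p = 0.0178), the HDAC7 deletion (log2 difference -0.28, SE 0.0667, adjusted p = 0.0318), the DDX17 knockout (log2 difference -0.42, SE 0.08196, adjusted p = 0.00709) and the libraries labelled HDAC7 knockout (log2 difference -0.36, SE 0.0821, adjusted p = 0.0109, limma). Without control hgRNA 1 replicate 2 or control hgRNA 2 replicate 1 the calls in both deletions were lost, and without replicate 1 those in both knockouts. In the DDX17 deletion STAT2 had 173, 194.7, 176 and 169.9 CPM and was not called (0.11), and it was higher there than in the DDX17 knockout (log2 difference 0.53, SE 0.08201, adjusted p = 0.000265, limma). The other 5 edits had 129 to 167 CPM and no call.

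IRF7, the factor that amplifies the production of type I interferon, was rarer, at 2.15 ± 0.797 (SD, n = 4) CPM in controls. It fell to 1.01 ± 0.294 (SD, n = 4) in the DDX5 deletion (log2 difference -1.04, SE 0.323, adjusted p = 0.0291) and to 0.683 ± 0.00711 (SD, n = 2) in the libraries labelled FNBP4 knockout (log2 difference -1.53, SE 0.467, adjusted p = 0.0436, limma). Both calls were lost without control hgRNA 1 replicate 2 or control hgRNA 2 replicate 1, and the second without replicate 1 of the knockout. In the other 8 comparisons differences ran from -0.68 (FNBP4 intron deletion) to 0.48 (HNRNPD deletion) without a call.

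Effectors that act on RNA were lower where they were called. OAS3 and OAS1 make the short 2'-5' oligoadenylates that switch on RNase L. OAS3 had 17.1, 24.8, 19.2 and 18.1 CPM in controls, against 13.9, 16.02, 12.97 and 10.8 in the DDX5 deletion and 8.16, 13, 12.2 and 14.6 in the FNBP4 PTC exon deletion. It had 8.01 and 10.9 CPM in the DDX5 knockout and 9.97 and 12.3 in the libraries labelled FNBP4 knockout. All 12 libraries were below the lowest control. OAS3 fell in the DDX5 knockout (log2 difference -1.07, SE 0.229, adjusted p = 0.0043), the libraries labelled FNBP4 knockout (log2 difference -0.81, SE 0.225, adjusted p = 0.0262), the FNBP4 PTC exon deletion (log2 difference -0.72, SE 0.175, adjusted p = 0.00447) and the DDX5 deletion (log2 difference -0.55, SE 0.173, adjusted p = 0.0297, limma). Of these, the call in the FNBP4 PTC exon deletion remained under every setting run, that in the DDX5 knockout ended without replicate 1, and the other 2 ended without control hgRNA 1 replicate 2 or control hgRNA 2 replicate 1, that in the FNBP4 knockout also without its replicate 1. The other 6 edits had 11.7 to 23.5 CPM and no call.

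OAS1 lay near the limit of counting, with 0.315, 0.783, 0.8902 and 0.809 CPM in controls. It had 0.596, 0.235, 0.118 and 0 CPM in the DDX5 deletion, 0 and 0.314 in the DDX5 knockout and 0 in both libraries labelled FNBP4 knockout. The DDX5 deletion overlapped the controls and the 2 knockouts did not. It was called lower in the DDX5 deletion (adjusted p = 0.0324) and the DDX5 knockout (adjusted p = 0.0491). In the libraries labelled FNBP4 knockout (adjusted p = 0.00795, limma) it was at least 7.52-fold lower than the control mean of 0.7 CPM, taking 3 counts over those 2 libraries (0.093 CPM) as the floor. That call was lost without either of the 2 libraries, and those in the DDX5 deletion and knockout without control hgRNA 1 replicate 2, the last also without replicate 1 of the knockout.

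IFIT3, of a family that binds the 5' ends of foreign RNA, fell from 2.48 ± 0.517 (SD, n = 4) CPM to 1.42 ± 0.164 (SD, n = 4) in the DDX5 deletion (log2 difference -0.79, SE 0.266, adjusted p = 0.044) and to 1.06 ± 0.184 (SD, n = 2) in the DDX5 knockout (log2 difference -1.20, SE 0.368, adjusted p = 0.0402, limma). Its counts come from a single intron, as do those of IFIT1, IFIT2, IFIT5 and ISG15, and each of the 2 calls was lost without any 1 of several libraries, among them control hgRNA 1 replicate 1. IFIT1 (169 reads over all libraries), IFIT2 (849), IFIT5 (1025) and the exonuclease ISG20 (233) were not called against controls. The authors' deposited table lists IFIT1 at an FDR under 0.05 in 7 of 15 hgRNA comparisons, higher with both FNBP4 PTC exon hgRNAs (log2 fold change 0.59 each) and lower in 5, from -0.66 in the DDX5 knockout to -1.33 with DDX5 deletion hgRNA 2. It lists IFIT2 as lower in 2, the DDX17 knockout (-0.57) and the libraries labelled HDAC7 knockout (-0.63). IFIT1 had 0 and 2 spliced reads in the libraries labelled HDAC7 knockout (limma adjusted p = 0.0888), too few for a fold.

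IFI44L showed the widest range among members present in all libraries. IFI44L and its paralog IFI44, cytoplasmic proteins induced by interferon, are neighbours on chromosome 1, with starts 29341 bases apart. IFI44L had 3.84, 2.83, 4.95 and 4.16 CPM in the controls. It had 7.29, 7.55, 6.303 and 7.11 CPM in the FNBP4 PTC exon deletion, 2.23, 1.93, 2.37 and 1.79 in the FNBP4 intron deletion and 1.46, 1.88, 1.599 and 1.28 in the DDX5 deletion. Every library of the first group was above all controls, and every library of the other 2 was below them. The DDX5 knockout had 1.04 and 1.51 CPM, the libraries labelled FNBP4 knockout 1.1 and 2.03 and those labelled HDAC7 knockout 1.15 and 2.51, all below the lowest control. IFI44L rose 1.81-fold in the FNBP4 PTC exon deletion (log2 difference 0.86, SE 0.1798, adjusted p = 0.0014, limma). It fell in the DDX5 knockout (log2 difference -1.62, SE 0.333, adjusted p = 0.003), the DDX5 deletion (log2 difference -1.32, SE 0.241, adjusted p = 0.00055), the FNBP4 intron deletion (log2 difference -0.89, SE 0.219, adjusted p = 0.0244) and the libraries labelled FNBP4 knockout (log2 difference -1.32, SE 0.321, adjusted p = 0.0118) and HDAC7 knockout (log2 difference -1.16, SE 0.313, adjusted p = 0.0296). The calls in the FNBP4 PTC exon and DDX5 deletions remained under every setting run, those in the 3 knockouts ended without replicate 1, and that in the FNBP4 intron deletion ended without any 1 of 6 libraries, among them control hgRNA 1 replicate 1 and control hgRNA 2 replicate 1. In the DDX17 deletion (2.32, 2.48, 2.21 and 3.51 CPM, adjusted p = 0.136), the HDAC7 deletion (2.57, 2.08, 1.995 and 2.19, adjusted p = 0.0642), the HNRNPD deletion (5.36 and 3.27, adjusted p = 0.817) and the DDX17 knockout (2.82 and 2.35, adjusted p = 0.297) it was not called.

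IFI44 had 4.41, 4.88, 4.79 and 3.99 CPM in controls, 7.82, 8.06, 7.35 and 8.17 in the FNBP4 PTC exon deletion and 3.14, 4.17, 2.13 and 2.68 in the DDX5 deletion. The DDX5 knockout had 2.03 and 3.14 CPM, the DDX17 knockout 1.94 and 2.29 and the libraries labelled HDAC7 knockout 1.76 and 2.39. The FNBP4 PTC exon libraries were all above the controls and the knockout libraries all below, while DDX5 hgRNA 1 replicate 2 lay within the control range. IFI44 rose in the FNBP4 PTC exon deletion (log2 difference 0.80, SE 0.165, adjusted p = 0.00118). It fell in the libraries labelled HDAC7 knockout (log2 difference -1.11, SE 0.279, adjusted p = 0.0189), the DDX17 knockout (log2 difference -1.08, SE 0.269, adjusted p = 0.0409), the DDX5 knockout (log2 difference -0.84, SE 0.253, adjusted p = 0.0367) and the DDX5 deletion (log2 difference -0.61, SE 0.194, adjusted p = 0.0325, limma). The rise remained under every setting run, and each of the 4 lower calls was lost without control hgRNA 2 replicate 1, and those in the 3 knockouts also without replicate 1. In the libraries labelled FNBP4 knockout IFI44 had 2.68 and 2.54 CPM and was not called (-0.78, adjusted p = 0.0606). The FNBP4 intron deletion (3.98, 4.25, 3.87 and 4.63 CPM) was not called (-0.11, adjusted p = 0.814).

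Other antiviral effectors were called once or not at all. BST2 (tetherin), which holds budding virus at the cell surface, fell from 0.902 ± 0.358 (SD, n = 4) to 0.309 ± 0.233 (SD, n = 4) CPM in the DDX5 deletion (log2 difference -1.69, SE 0.534, adjusted p = 0.0312), with overlapping libraries. IFI35, a protein whose transcript interferon induces, fell from 25.4 ± 3.79 (SD, n = 4) to 15.5 ± 1.46 (SD, n = 4) CPM in the same edit (log2 difference -0.69, SE 0.227, adjusted p = 0.038, limma). Both calls were lost without control hgRNA 1 replicate 2. SAMD9, a factor that restricts poxviruses, rose from 4.75 ± 0.643 (SD, n = 4) to 7.24 ± 0.836 (SD, n = 4) CPM in the FNBP4 PTC exon deletion (log2 difference 0.60, SE 0.209, adjusted p = 0.0368), a call lost without either replicate of control hgRNA 1. MX1, IFI27 and IFI6 were not called against controls. IFI6, the most abundant of these 3 with 51.3 ± 12.6 (SD, n = 4) CPM in controls, differed by -0.98 where the FNBP4 PTC exon was deleted (adjusted p = 0.0698) and by -0.95 in the libraries labelled FNBP4 knockout (adjusted p = 0.248).

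In the ISG15 pathway, UBE2L6 and HERC5 were called most. ISG15 is a ubiquitin-like protein, UBE2L6 the enzyme that carries it, HERC5 the ligase that attaches it and USP18 the protease that removes it. UBE2L6 had 11.04, 11.8, 10.6 and 9.23 CPM in controls, against 5.09, 4.75, 5.33 and 5.79 in the DDX5 deletion and 6.11, 7.43, 7.88 and 6.73 in the FNBP4 intron deletion. The DDX5 knockout had 7.68 and 5.84 CPM and the libraries labelled FNBP4 knockout 7.29 and 4.97. All 12 libraries were below all controls. UBE2L6 fell 2.03-fold in the DDX5 deletion (log2 difference -1.02, SE 0.174, adjusted p = 0.000294), and less in the libraries labelled FNBP4 knockout (log2 difference -0.83, SE 0.217, adjusted p = 0.0185), the DDX5 knockout (log2 difference -0.66, SE 0.2096, adjusted p = 0.0487) and the FNBP4 intron deletion (log2 difference -0.60, SE 0.164, adjusted p = 0.0415, limma). The call in the DDX5 deletion remained under every setting run, and those in the DDX5 knockout and the FNBP4 intron deletion were lost on removal of any 1 of the 4 controls. That in the libraries labelled FNBP4 knockout was lost without either of them. The other 6 edits had 6.81 to 14.5 CPM and no call. HERC5 fell from 15.4 ± 2.11 (SD, n = 4) CPM to 11.3 ± 1.05 (SD, n = 4) in the DDX5 deletion (log2 difference -0.44, SE 0.131, adjusted p = 0.0221), 8.81 ± 2.25 (SD, n = 2) in the HNRNPD deletion (log2 difference -0.82, SE 0.172, adjusted p = 0.00347) and 8.69 ± 0.663 (SD, n = 2) in the DDX5 knockout (log2 difference -0.81, SE 0.171, adjusted p = 0.0037). The last 2 calls were lost without replicate 1 of the edited libraries, and the first without control hgRNA 1 replicate 2. ISG15 itself was called once, falling from 6.97 ± 2.16 (SD, n = 4) to 3.04 ± 1.296 (SD, n = 4) CPM in the FNBP4 PTC exon deletion (log2 difference -1.22, SE 0.442, adjusted p = 0.043, limma), and that call was lost without control hgRNA 1 replicate 2, control hgRNA 2 replicate 1, FNBP4 hgRNA 3 replicate 1 or either replicate of hgRNA 4. The authors' deposited table, which compares each hgRNA alone with controls, lists ISG15 at an FDR under 0.05 in 0 of 15 comparisons. USP18, with 175 reads in all, was not called.

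Genes of nuclear bodies and the PARP9 complex rose or fell in 4 edits. PARP14 and PARP9 are ADP-ribosyltransferase family members, and DTX3L is the ubiquitin ligase that pairs with PARP9. PARP14 rose from 55.1 ± 6.94 (SD, n = 4) to 78.7 ± 6.697 (SD, n = 4) CPM in the FNBP4 PTC exon deletion (log2 difference 0.52, SE 0.0951, adjusted p = 0.00043), and PARP9 from 17.4 ± 3.73 (SD, n = 4) to 25.4 ± 1.44 (SD, n = 4) (log2 difference 0.57, SE 0.153, adjusted p = 0.00913), with no overlap in either. PARP14 fell to 35.8 ± 1.48 (SD, n = 2) in the libraries labelled FNBP4 knockout (log2 difference -0.61, SE 0.124, adjusted p = 0.00302) and to 40.8 ± 4.85 (SD, n = 2) in the DDX5 knockout (log2 difference -0.43, SE 0.121, adjusted p = 0.0278, limma). Both of these calls ended without replicate 1 of the knockout, and the rise of PARP9 without control hgRNA 1 replicate 2, control hgRNA 2 replicate 1 or FNBP4 hgRNA 4 replicate 1. PARP9 is at an FDR under 0.05 in 0 of the 15 hgRNA comparisons of the authors' deposited table. PARP9 and DTX3L start 446 bases apart on opposite strands. DTX3L was not called against controls, with a difference of 0.31 (adjusted p = 0.14) where the FNBP4 PTC exon was deleted. SP110, a nuclear body protein, rose from 15.7 ± 0.353 (SD, n = 4) to 20.95 ± 2.29 (SD, n = 4) CPM in the DDX5 deletion (log2 difference 0.41, SE 0.108, adjusted p = 0.0108), and SP100, a core protein of PML bodies, was not called anywhere.

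In class I antigen presentation, HLA-F, HLA-B and B2M were lower in several edits and never called higher than controls. B2M, the shared light chain, had 345, 351, 377 and 333 CPM in controls. It had 263, 171, 268 and 261 CPM in the DDX17 deletion and 229.6, 236, 263 and 256 in the FNBP4 intron deletion. Knockouts had 187 and 169 CPM for DDX5, and, as labelled, 211 and 197 for FNBP4 and 187 and 209 for HDAC7. All 14 of these libraries were below all controls. B2M fell in the DDX5 knockout (log2 difference -0.98, SE 0.178, adjusted p = 0.00109), the libraries labelled HDAC7 knockout (log2 difference -0.83, SE 0.178, adjusted p = 0.00735) and FNBP4 knockout (log2 difference -0.78, SE 0.178, adjusted p = 0.00687), the DDX17 deletion (log2 difference -0.57, SE 0.145, adjusted p = 0.024) and the FNBP4 intron deletion (log2 difference -0.52, SE 0.145, adjusted p = 0.0483, limma). The call in the DDX5 knockout remained under every setting run, those in the 2 other knockouts ended without replicate 1, that in the DDX17 deletion without its hgRNA 1 replicate 2 (among others), and that in the FNBP4 intron deletion without any 1 of its 8 libraries. In the DDX17 knockout, B2M had 263 and 188 CPM and was not called (-0.66, adjusted p = 0.0574). The FNBP4 PTC exon deletion (248.6, 433, 398 and 383 CPM) spanned the controls. The DDX5 deletion had 283, 313, 318 and 309 CPM, the HDAC7 deletion 306, 226, 301 and 304 and the HNRNPD deletion 325 and 266, without a call.

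HLA-F, a heavy chain of low abundance, was lower in 6 comparisons. HLA-F had 8.25, 11.5, 10.6 and 9.55 CPM in controls, 6.32, 7.1, 6.81 and 6.52 in the DDX17 deletion and 5.53, 5.78, 5.95 and 4.88 in the FNBP4 intron deletion. It had 3.84 and 5.46 CPM in the DDX5 knockout, 3.26 and 3.66 in the DDX17 knockout, and, as labelled, 4.81 and 4.74 in the FNBP4 and 5.48 and 6.21 in the HDAC7 knockout. All 16 of these libraries were below all controls, and the DDX17 knockout was lowest. HLA-F fell 2.84-fold in the DDX17 knockout (log2 difference -1.50, SE 0.216, adjusted p = 0.000486), and fell in the DDX5 knockout (log2 difference -1.12, SE 0.1996, adjusted p = 0.000963), in the libraries labelled FNBP4 (log2 difference -1.04, SE 0.2004, adjusted p = 0.002) and HDAC7 knockout (log2 difference -0.75, SE 0.193, adjusted p = 0.0217), in the FNBP4 intron deletion (log2 difference -0.83, SE 0.149, adjusted p = 0.00204) and in the DDX17 deletion (log2 difference -0.57, SE 0.148, adjusted p = 0.0259, limma). Calls in the DDX17 knockout, the libraries labelled FNBP4 knockout and the FNBP4 intron deletion remained under every setting run. Those in the DDX5 knockout and the libraries labelled HDAC7 knockout ended without replicate 1, and that in the DDX17 deletion without control hgRNA 1 replicate 2. Uncalled were the DDX5 deletion (8.94, 8.802, 9.36 and 8.71 CPM), the FNBP4 PTC exon deletion (7.89, 9.28, 6.25 and 9.55), the HDAC7 deletion (10.5, 12.7, 11.3 and 11.1) and the HNRNPD deletion (5.64 and 7.896).

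HLA-B, a classical heavy chain of high abundance, had 433, 614, 477 and 458 CPM in controls, with control hgRNA 1 replicate 2 highest. The FNBP4 intron deletion had 296, 282, 308 and 302 CPM, the DDX5 knockout 234 and 255 and the DDX17 knockout 266 and 284. The libraries labelled FNBP4 knockout had 216.04 and 287 CPM and those labelled HDAC7 knockout 252 and 268. None of these 12 libraries reached the lowest control. HLA-B fell in the DDX5 knockout (log2 difference -1.01, SE 0.198, adjusted p = 0.00218), in the libraries labelled FNBP4 (log2 difference -0.98, SE 0.198, adjusted p = 0.00308) and HDAC7 knockout (log2 difference -0.92, SE 0.198, adjusted p = 0.00758), in the DDX17 knockout (log2 difference -0.84, SE 0.198, adjusted p = 0.0302) and in the FNBP4 intron deletion (log2 difference -0.73, SE 0.162, adjusted p = 0.0123, limma). All 4 knockout calls ended without replicate 1, and that in the FNBP4 intron deletion ended without control hgRNA 1 replicate 2, among others. The DDX5 deletion (467, 462, 488 and 449.9 CPM), DDX17 deletion (276, 533, 319.6 and 324), FNBP4 PTC exon deletion (482, 436, 420.0 and 457), HDAC7 deletion (495, 874, 645 and 545) and HNRNPD deletion (437 and 425) gave no call, and in the control, DDX17 and HDAC7 groups the highest library was replicate 2 of hgRNA 1, the 3 libraries that stood apart together. Reads shared between class I genes can be counted under either, and HLA-B and HLA-C overlap in the annotation, so their separate levels are uncertain. HLA-C, the most abundant heavy chain, and HLA-E, which presents leader peptides, were not called against controls, with differences from -0.39 (FNBP4 intron deletion) to 0.22 (HDAC7 deletion) for HLA-C and from -0.17 (DDX5 deletion) to 0.36 (HDAC7 deletion) for HLA-E.

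Of the peptide supply genes, PSMB9 alone was called against controls. PSMB9, an immunoproteasome subunit, fell from 18.8 ± 2.71 (SD, n = 4) CPM to 10.3 ± 1.59 (SD, n = 4) in the DDX5 deletion (log2 difference -0.87, SE 0.218, adjusted p = 0.00805), 10.3 ± 0.961 (SD, n = 2) in the DDX5 knockout (log2 difference -0.85, SE 0.273, adjusted p = 0.0496) and 9.94 ± 1.6 (SD, n = 2) in the libraries labelled FNBP4 knockout (log2 difference -0.92, SE 0.278, adjusted p = 0.0409, limma). The last 2 calls were lost without replicate 1 of the knockout, and the first without DDX5 hgRNA 2 replicate 2. TAP1, which pumps peptides into the endoplasmic reticulum and starts 488 bases from PSMB9 on the opposite strand, was not called, with differences of 0.02, -0.24 and -0.16 in those 3 comparisons. PSMB8, another immunoproteasome subunit, was not called either, with all 3 differences below 0 (-0.34, -0.29 and -0.40). Whether these genes differed from PSMB9 was not tested.

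**Figure D4:**
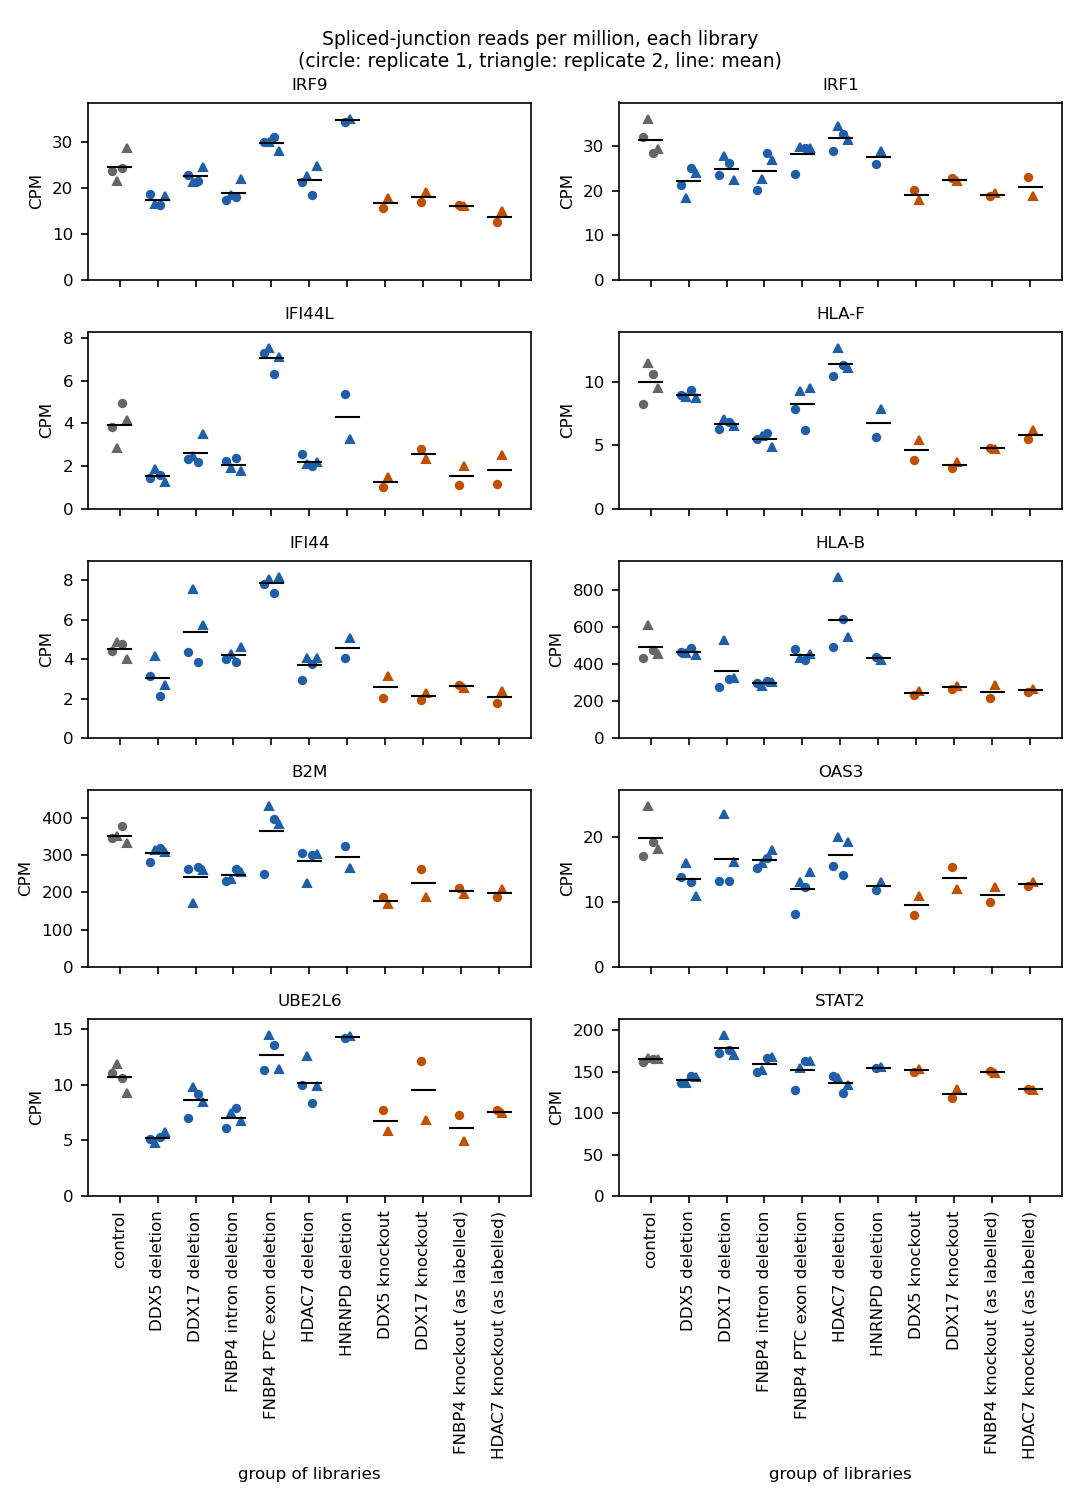
Spliced-junction reads in CPM of the 10 members called in the most comparisons, 1 panel each, for every library in the control group (grey), 6 deletions (blue) and 4 knockouts (orange), with circles for replicate 1, triangles for replicate 2 and a line at the mean. Both HNRNPD libraries of IRF9 lie above all controls, the 4 FNBP4 PTC exon libraries of IFI44L and IFI44 lie above all controls, and the knockouts of HLA-B lie below all controls.

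The 2 kinds of FNBP4 deletion were then set against each other, 4 libraries each, a comparison that does not use the controls. In the PTC exon deletion 16 of the 39 members (41%) were higher and 2 (5.13%) lower than in the intron deletion. Of all genes 16.4% were higher and 14.3% lower, and the median was 0.23 for members against 0.02. The higher genes were IFI44L, IFI44, IFIH1, IRF9, OAS1, MX1, IFIT1, BST2, PARP9, PARP14, DTX3L, UBE2L6, PSMB9, HLA-B, HLA-F and B2M. The lower ones were OAS3 and SP110. Of the 18 calls 9 held under every setting run, those of IFI44L, IFI44, IFIH1, IRF9, BST2, PARP14, DTX3L, UBE2L6 and HLA-B. The lower count was 1 or 0 on removal of any library but hgRNA 3 replicate 2.

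IFI44L was 3.35-fold higher in the PTC exon than in the intron deletion (log2 difference 1.75, SE 0.205, adjusted p = 9.30e-07), and the 8 libraries did not overlap. IRF9 (log2 difference 0.66, SE 0.102, adjusted p = 3.53e-05) and PARP14 (log2 difference 0.66, SE 0.0954, adjusted p = 1.53e-05) did not overlap either. BST2 had 1.27, 1.22, 0.995 and 1.75 CPM in the PTC exon and 0.243, 0.453, 0.0967 and 0.3703 in the intron deletion, where 1 read is worth up to 0.0887 CPM (log2 difference 2.27, SE 0.499, adjusted p = 0.00138). DTX3L had 13.4, 10.1, 10.6 and 9.92 and 5.68, 8.16, 6.24 and 7.96 CPM (log2 difference 0.66, SE 0.162, adjusted p = 0.00352, limma), a gene not called against the controls in either deletion. B2M (0.54, adjusted p = 0.00661) and PSMB9 (0.68, adjusted p = 0.0154) were called although their libraries overlapped, and the call of B2M was lost without hgRNA 3 replicate 2. FNBP4 hgRNAs 2 and 3, which share a Cas9 guide, fell on opposite sides for IFI44L, with 2.37 and 1.79 CPM for hgRNA 2 and 7.29 and 7.55 for hgRNA 3.

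**Figure D5:**
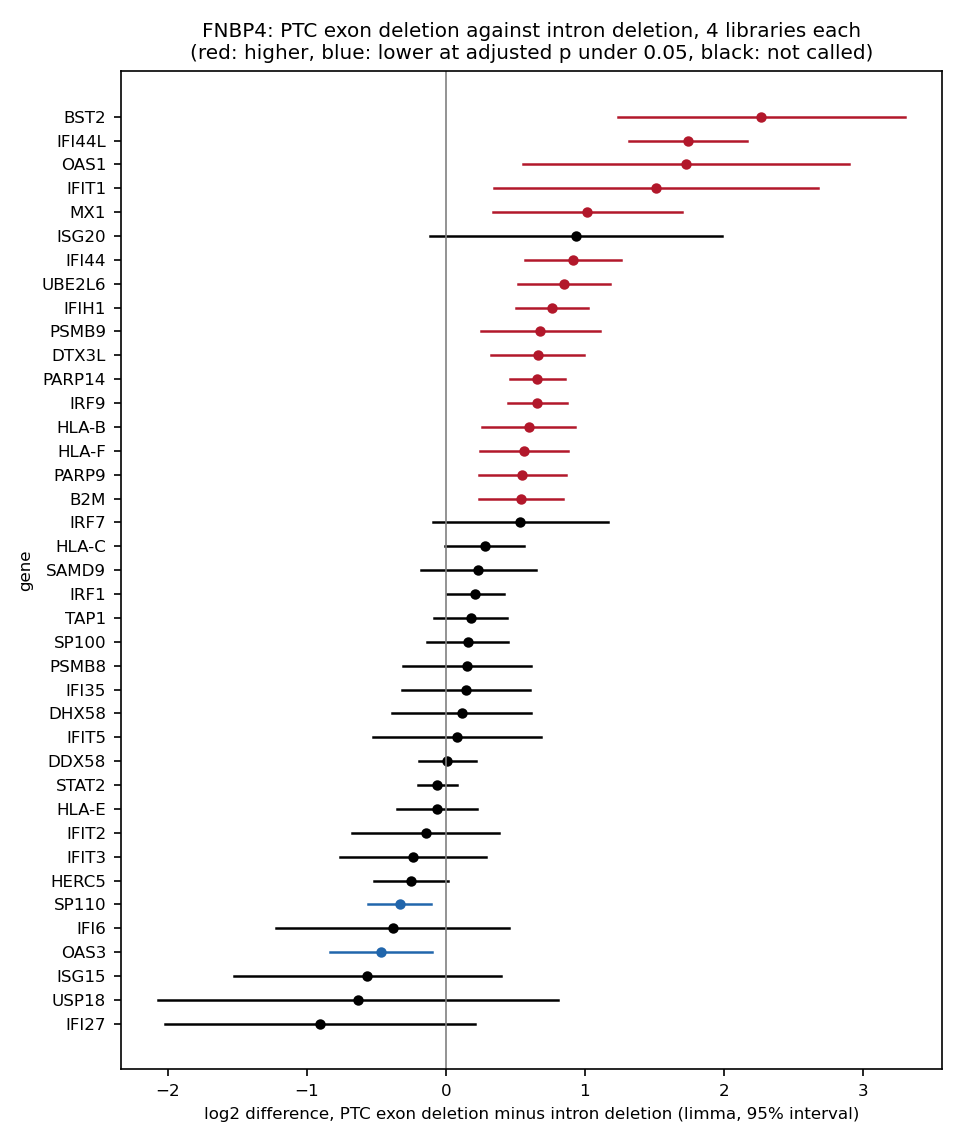
log2 difference of the 39 tested members between the FNBP4 PTC exon deletion and the FNBP4 intron deletion (4 libraries each), sorted, with 95% intervals from limma. Red marks the 16 higher and blue the 2 lower genes at an adjusted p under 0.05, and black those not called. BST2 and IFI44L stand at the top, and the intervals of USP18, IFI27 and ISG15 are wide and include 0.

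The same 4 PTC exon libraries were further compared with the libraries labelled FNBP4 knockout. There 17 members (43.6%) were higher and 1 (2.56%) lower, against 15.5% and 15.3% of all genes, with a median of 0.68 against 0.01. The higher genes were those of the previous comparison without MX1 and IFIT1, plus IRF1, IRF7 and SAMD9, and the lower one was again SP110 (log2 difference -0.50, SE 0.134, adjusted p = 0.00712). IFI44L (log2 difference 2.18, SE 0.312, adjusted p = 1.39e-05), PARP14 (log2 difference 1.13, SE 0.123, adjusted p = 3.27e-07) and IFIH1 (log2 difference 1.40, SE 0.171, adjusted p = 1.68e-06, limma) had the smallest adjusted p-values among members. The higher count was 11 without replicate 2 of the libraries labelled FNBP4 knockout and 12 without their replicate 1.

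Deletion and knockout of the same gene were compared for DDX5, DDX17 and HDAC7 as well. In the DDX5 deletion 4 members (10.3%) were higher than in the DDX5 knockout, DDX58, HLA-B, HLA-F and B2M, against 1.75% of all genes higher, and 0 were lower against 2.65%. DDX58 was higher with log2 difference 0.52, SE 0.118, adjusted p = 0.0108 and HLA-B with log2 difference 0.93, SE 0.198, adjusted p = 0.00669. IFI44L and IRF1, lower than control in both edits, were not called between them, with differences of 0.30 (95% interval -0.45 to 1.05) and 0.21 (-0.06 to 0.47). In the DDX17 deletion IFI44, STAT2, SP110 and HLA-F were higher than in the DDX17 knockout, 4 (10.3%) against 4.31% of all genes, and 0 lower against 4.56%. In the HDAC7 deletion IRF1, IRF9, HLA-B, HLA-C and HLA-F were higher than in the libraries labelled HDAC7 knockout, 5 (12.8%) against 2.98%, and 0 lower against 3.04%. HLA-B had the largest of these differences (log2 difference 1.27, SE 0.198, adjusted p = 0.000925, limma). Without replicate 1 of the knockout these counts of higher genes became 0, 1 and 2, without its replicate 2 they became 2, 2 and 3, and without DDX17 deletion hgRNA 1 replicate 1 that of DDX17 became 10. The calls of STAT2 in DDX17 and HLA-B in HDAC7 held under every single removal. No member call in these 3 comparisons held under every other setting run. At an unadjusted p under 0.05 limma had 1, 0 and 0 lower members in the 3 comparisons.

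The rest of the pathway was read from lists of receptors and signalling genes (14 of 15 tested), other sensors and adaptors (13 of 18), other interferon-stimulated genes (25 of 31) and other antigen presentation genes (16 of 18). None of the 6 interferon ligand genes listed was tested. In the DDX5 deletion 6 of the 25 other interferon-stimulated genes were lower (GBP2, LGALS3BP, PLSCR1, PARP10, DDX60 and IFI30) and 1 higher (DDX60L), against 9.68% and 7.22% of all genes, and the median of that list was -0.02. In the FNBP4 PTC exon deletion 8 were higher (IFI16, TRIM21, GBP1, GBP2, NMI, PLSCR1, DDX60 and DDX60L) and TRIM22 lower, against 13.9% and 13% of all genes, with a median of 0.20. GBP2, a guanylate-binding GTPase, was lower in the DDX5 (-0.99), DDX17 (-0.68) and FNBP4 intron deletions (-0.80), in the DDX5 knockout (-0.96) and in the libraries labelled FNBP4 (-1.03) and HDAC7 knockout (-1.37). In the FNBP4 PTC exon deletion it was higher (log2 difference 0.66, SE 0.121, adjusted p = 0.000413, limma). Among receptors and kinases, JAK2 (0.66, adjusted p = 0.000895) and PIAS1 (0.50, adjusted p = 0.00669) were higher and TYK2 (-0.31, adjusted p = 0.0143) lower in that edit. TLR3, a sensor of RNA in endosomes, was lower in the DDX5 deletion (-1.05) and the DDX5 knockout (-1.29), and the kinase gene TBK1 (0.35) and IRF2 (0.47) were higher in the FNBP4 PTC exon deletion. Of the 16 other antigen presentation genes, 2 were higher (CD74 and HLA-DRA) and 3 lower (TAPBP, PSMB10 and PDIA3) in the DDX5 deletion. Of all genes, 7.22% were higher and 9.68% lower there. In the FNBP4 PTC exon deletion 3 of the 16 were higher (PSME1, ERAP1 and PDIA3) and 1 lower (TAP2), against 13.9% and 13% of all genes. Whether these small counts differ from those shares was not tested. ERAP1, which trims peptides for class I molecules, was lower in the FNBP4 intron (-0.36) and DDX17 deletions (-0.35), the DDX5 knockout (-0.44) and the libraries labelled FNBP4 knockout (-0.60), and higher in the FNBP4 PTC exon deletion (0.43).

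Splicing of the same genes gave a readout that does not rest on their level. Between 607 and 690 splicing events in 26 to 31 member genes could be tested per comparison, each with 20 reads in every library, and 0 were called at an adjusted p under 0.05 (limma) with a difference of at least 10 percentage points. All events of the series gave 172 calls in the DDX5 deletion (0.0612%), 1 in the FNBP4 intron deletion (0.000351%), 5 in the DDX17 knockout (0.00178%), 2 in the libraries labelled HDAC7 knockout (0.000744%) and 0 in the other 6 comparisons (0%). In the DDX5 deletion 7 member events passed the adjusted p with a smaller difference. At an unadjusted p under 0.05 with that difference there were 0 to 5 member events per comparison (0 to 0.808% of those tested), against 0.116 to 0.459% of all events. Another fit, with a coefficient for each hgRNA, also called 0. Without DDX5 deletion hgRNA 1 replicate 2 that comparison called 1 member event.

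Of the introns with enough reads in all libraries, those retained in controls lay in 3 member genes. Among 113 introns of 22 member genes with 20 reads in all libraries, 8 were retained in at least 10% of transcripts in controls, 5 of them in STAT2, 2 in SP100 and 1 in SP110. The SP100 introns were the most retained, at 96.3% ± 1.61 (SD, n = 4) and 57.1% ± 11.5 (SD, n = 4) in controls, and that of SP110 was at 32.1% ± 3.94 (SD, n = 4). The STAT2 intron at chr12:56349637-56350096 (GRCh38) was retained at 27.2% ± 2.69 (SD, n = 4) in controls. In replicate 1 of the DDX5, DDX17, FNBP4 and HDAC7 knockouts, the last 2 as labelled, retention was 3.31, 3.7, 0.806 and 3.85%, and in replicate 2 it was 27, 39, 16.2 and 27.6%. The intron at chr12:56354864-56355275, with 20.9% ± 0.753 (SD, n = 4) in controls, had 2.49, 3.39, 1.32 and 1.13% in replicate 1 and 14.2, 29.1, 5.36 and 17.1% in replicate 2. In both introns replicate 1 was thus lower than replicate 2 in each knockout, and these are the libraries with 0.965 to 1.21% of exon-intron reads in all. The STAT2 intron at chr12:56349510-56349588 showed the same gap, with 0.41 to 1.44% in replicate 1 and 9.54 to 13.2% in replicate 2 of the knockouts. So did that at chr12:56349262-56349425, with 0 to 3.01% and 5.08 to 16.2%. The last of the 5 STAT2 introns, chr12:56355792-56356131 with 49.1% ± 6.67 (SD, n = 4) in controls, showed no such gap. It had 33.3 to 58.8% over the 8 knockout libraries. STAT2 intron chr12:56350191-56350411 was at 39.1% ± 5.70 (SD, n = 4) in controls and 55.1% ± 8.05 (n = 4) in the DDX5 deletion (limma adjusted p = 0.138). Introns of IRF9 did not have 20 reads in all libraries and so are not among the 8. That at chr14:24164135-24164613 was at 18.7% ± 7.68 (SD, n = 4) in controls and 33.7% ± 10.3 (n = 4) in the DDX5 deletion (limma adjusted p = 0.231). That at chr14:24161339-24162143 was at 11.7% ± 6.97 (SD, n = 4) in controls and 28.8% ± 8.69 (n = 4) in the FNBP4 intron deletion (limma adjusted p = 0.465). The SP100 exon at chr2:230507993-230508031 was included at 82.1% ± 2.36 (SD, n = 4) in controls and 64.4% ± 0.307 (n = 2) in the libraries labelled FNBP4 knockout (limma adjusted p = 0.201).

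Genes outside the test can be read only from the authors' deposited table or from few reads. IFITM1, IFITM2 and IFITM3, near-identical membrane proteins without an intron row, stood at 1.77, 29.72 and 80.02 RPKM in controls in the authors' deposited table, where reads may be split between them. IFITM3 is listed there at 46.31 and 47.72 RPKM with the 2 DDX5 deletion hgRNAs (log2 fold changes -0.89 and -0.87, FDR 0.00514 and 0.00994) and at 128.78 with the HNRNPD hgRNA (0.68, FDR 0.0437). The authors' deposited table lists IFITM1 and IFITM2 at an FDR of 0.05 or more in all 15 hgRNA comparisons. OASL had 111 spliced reads in all libraries together, OAS2 98, MX2 26, RSAD2 (viperin) 12, XAF1 4 and CMPK2 0. CMPK2 and RSAD2 start 750 bases apart on opposite strands, and both are listed at no more than 0.07 RPKM in any group of the authors' deposited table.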

How the data were processed

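The members, the gene lists and the tests were chosen with earlier results of these data known. Counts came from the authors' deposited splicing table, which holds 34 libraries used here and 2 library columns not used here. Per the file headers it gives, for each event and library, an inclusion level in percent and a string of read counts, of which 721536 events (192950 introns) were read. Intron positions in it lie on GRCh38. No source used here names the aligner or the annotation. Spliced-junction counts of a gene's introns were summed per library, all of them whole within 1e-09, so genes with many introns count a read more than once and single-intron genes rest on few. The tests planned for such counts were limma tests with voom weights, since the counts come out of a text field and not from a deposited count table. RPKM values, log2 fold changes and p-values with FDR of each hgRNA against controls are the authors' deposited ones, with replicates combined; the submitters' processing notes list Salmon 1.10 and edgeR (version not given).

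Genes needed 10 reads at the median library size in 2 libraries and 15 in total. TMM factors (0.901 to 1.06), log2 CPM with voom weights and 1 coefficient for each of 17 hgRNAs entered limma 3.58.1 in R 4.3.3 (17 residual and 5.83 prior degrees of freedom), and an edit is the mean of its hgRNAs. p-values were Benjamini-Hochberg adjusted over 12081 genes and called under 0.05. With 2 libraries per hgRNA, labelled as biological duplicates, p-values measure the spread between those cultures. Levels are printed as mean ± SD over libraries. Splicing events were tested with limma on log2((inclusion reads + 1)/(exclusion reads + 1)) with 20 reads in every library of the comparison and called at an adjusted p under 0.05 and 10 percentage points. The fit with 1 coefficient per condition was kept after both it and 1 per hgRNA had been run. Every called member is named, values per group are given for members called in at least 2 comparisons with controls, and values per library for the 10 called in the most. Motifs were searched in Python 3.11.15 (numpy 2.4.6, figures with matplotlib 3.10.9). The tests across genes and events were tested on simulated data. Some genes of the lists are not reported here. Alternatives were another size factor, no count filter, a replicate block, removal of GC and length trends (11686 of the 12081 genes and all 39 tested members had both values), a fit of the compared libraries alone, and leaving out libraries.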

Additional observations from a re-analysis of the deposited data

Results flagged for a closer look

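For the 10 members with values per library, the 60 groups of 4 libraries were searched for a library far from the other 3 by Dixon's test. Chance gives about 1 in 20 groups, and 3 were found. IRF1 had 23.8 CPM in FNBP4 deletion hgRNA 3 replicate 1, against 29.5 to 29.7 in the other 3 libraries of the PTC exon deletion (gap 0.957 of the range). B2M had 171.5 CPM in DDX17 deletion hgRNA 1 replicate 2, against 260.9 to 268.2 in the other 3 (0.924). B2M had 225.8 CPM in HDAC7 deletion hgRNA 1 replicate 2, against 300.6 to 306.3 in the other 3 (0.929). These last 2 libraries are among the 3 replicate 2 libraries whose deviations went together.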

How the results depend on the processing

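Of 128 calls of a member in a comparison none reversed under any alternative run. Leaving out 1 library at a time kept the call in 580 refits and lost it in 296, and the other settings kept it in 703 and lost it in 136. The cause was not tested. Leaving out 1 library, counts of lower members against controls ran from 5 to 13 for the DDX5 deletion, 0 to 4 for the DDX17 deletion, 1 to 4 for the FNBP4 intron deletion, 0 to 2 for the HDAC7 deletion, 1 to 5 for the FNBP4 PTC exon deletion, 0 to 4 for the HNRNPD deletion, 2 to 11 for the DDX5 knockout, 1 to 3 for the DDX17 knockout, 2 to 13 for the FNBP4 knockout and 1 to 8 for the HDAC7 knockout (knockouts as labelled). Counts of higher members ran from 2 to 2 for the DDX5 deletion, 0 to 1 for the DDX17 deletion, 0 to 2 for the HDAC7 deletion, 4 to 8 for the FNBP4 PTC exon deletion and 0 to 1 for the HNRNPD deletion, and were 0 in the other comparisons with controls. Between edits of a gene, higher members ran from 12 to 16 (lower 0 to 2) for the FNBP4 PTC exon against the intron deletion, 0 to 4 for DDX5, 1 to 10 for DDX17, 2 to 5 for HDAC7 and 11 to 18 (lower 1) for the FNBP4 PTC exon deletion against the FNBP4 knockout. The F-test called 20 to 31 members and the splicing test 0 or 1 event, and the 2 control hgRNAs gave 0.

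Without the count filter, where more genes were tested, lower counts were 9 in the DDX5 deletion, 3 in the FNBP4 intron deletion, 1 in the FNBP4 PTC exon deletion, 9 in the DDX5 knockout, 2 in the DDX17 knockout and 1 between the FNBP4 deletions. In a fit of the compared libraries alone, lower counts were 0 in the DDX17 and HDAC7 deletions, 12 in the FNBP4 intron deletion, and 8, 1, 8 and 3 in the DDX5, DDX17, FNBP4 and HDAC7 knockouts; deletion against knockout gave 1 lower for DDX5, 0 higher for DDX17 and HDAC7, and 0 lower for the FNBP4 PTC exon. With GC and length trends removed the HNRNPD deletion had 0 higher and 4 lower, the FNBP4 knockout 1 higher, DDX17 deletion against knockout 7 higher, and the FNBP4 PTC exon deletion against knockout 2 lower. Without replicate 2 of hgRNA 1 in 3 groups together (HDAC7 deletion, DDX17 deletion, control), the HDAC7 deletion had 0 lower, DDX5 deletion against knockout 2 lower and DDX17 deletion against knockout 7 higher. Without the 4 knockout replicate 1 libraries, lower counts were 2, 1, 4 and 1 in the DDX5, DDX17, FNBP4 and HDAC7 knockouts, and higher counts against the knockout 0 for DDX5, 1 for DDX17 and 2 for HDAC7. Other size factors kept every count within 1.5 times.

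The replicate number as a block changed 1 count by over 1.5 times, that of lower members in the HNRNPD deletion, from 2 to 4. Over all groups the numbers did not pair the samples: the deviations of same-numbered libraries correlated above 0.1 in 28 of 136 pairs of groups (median -0.00638). Among the 4 knockouts they did so in all 6 pairs (0.369 to 0.497), and among control, DDX17 and HDAC7 deletion hgRNA 1 in all 3 (0.518 to 0.663). Depth limits the rarest members most, since 1 read is worth up to 0.0887 CPM and OAS1, IFIT1, USP18, IFI27 and ISG20 stood near it.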
